A study of Mus musculus with 6 samples.

Results

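Solute carriers are membrane proteins that move nutrients, ions, metals and metabolites across the plasma membrane or the membranes of organelles, and their mouse genes carry the symbol Slc followed by the number of a family. Families are named largely by what they carry, such as glucose in the SLC2 family, amino acids in the SLC1, SLC6, SLC7 and SLC38 families and zinc in the SLC30 and SLC39 families. Rapidly dividing embryonic stem cells (ESCs) take up large amounts of glucose and amino acids through such carriers. The transcripts described here are those of Slc genes on which BAZ2A, the chromatin protein also known as TIP5, had a peak in individual-nucleotide UV crosslinking and immunoprecipitation (iCLIP), an assay in which UV irradiation attaches a protein covalently to RNA in contact with it and the attached RNA is then sequenced.

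The cells were E14 mouse ESCs grown in serum-free medium with LIF and 2 inhibitors (2i), in which the endogenous BAZ2A carries FLAG and HA tags, and BAZ2A was precipitated from nuclei through the FLAG tag. Libraries were made from 3 samples of UV-crosslinked cells and from 3 background samples of the same tagged cells that had not been crosslinked. According to the study, no amplified product was visible on a gel for the background samples. The peaks were called on all 6 libraries together and form a single list of 3127 peaks on 2288 genes, so that no value exists per library, no replicate error can be given and none of the values below has a replicate check. The level of each transcript was not used, and each share of genes or of peaks is therefore a description of the list and not of binding per molecule. Wilson intervals below cover the counting of genes or peaks only, and peaks of 1 gene come from the same transcripts and are not replicates of each other.

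Members were all protein-coding genes of GENCODE M21 with a symbol of the form Slc and a digit that the list names at least once. There were 49 such genes among the 371 annotated ones, with 80 peaks. Having a peak is what chose them, so their number is a description. Annotated Slc genes without a peak have no value in the list, and the member with the lowest best peak was Slc39a11, with a score of 1.29. The score is the peak caller's own value on an unstated scale and was compared only within the list, where its minimum was 0.636 and its median 4.28. Of 11 ESC marker genes, 9 had a peak and none of 4 fibroblast marker genes had one, which speaks only of presence in the list. Among all protein-coding genes other than Slc genes 9.72% had a peak, so that none of 4 carries little information.

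The sequences of the highest-scored carrier transcripts come first, since the position of the peaks in exons and introns is what the values below turn on. They were read from the GRCm38 (mm10) reference, run 5′ to 3′ on the strand of the gene, and carry in capitals the 5 bases centred on the mode, the single nucleotide that the list gives for each peak. Of a UTR, or where a transcript of the gene has a UTR in the interval, at most 30 bases around the mode are shown. The glucose transporters Slc2a1 (4 of its 7 peaks) and Slc2a3 (3 of its 4) are shown together, because they have the largest number of peaks and the highest score among the members. The coding peaks of Slc2a3 were added after their values were seen, for comparison with those of its paralog.
Slc2a1 exon 3, chr4:119132201-119132284, plus strand: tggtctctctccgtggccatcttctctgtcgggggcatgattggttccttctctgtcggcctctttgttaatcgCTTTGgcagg
Slc2a1 exon 4, chr4:119132444-119132507, plus strand: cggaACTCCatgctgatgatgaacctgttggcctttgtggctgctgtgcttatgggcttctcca
Slc2a1 exon 5 upstream, chr4:119133135-119133177, plus strand: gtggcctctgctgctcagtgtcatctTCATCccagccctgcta
Slc2a1 exon 10 (3'UTR), chr4:119137297-119137325, plus strand: acctaagcagatATAAAtggctggttttt
Slc2a3 exon 5, chr6:122736699-122736728, minus strand: actttattctggGCTCTgaagaactgtggc
Slc2a3 exon 10 coding part, chr6:122730084-122730113, minus strand: atcttcgctgccTTCCTcatcttcttccta
Slc2a3 exon 10 (3'UTR), chr6:122729070-122729099, minus strand: catggagtccagACAAGggaggggtcaccg

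The best peak of each of the other 8 members among the 10 with the highest best score follows. These show coding, untranslated and intronic sites side by side.
Slc6a8 (5'UTR), chrX:73673695-73673724, plus strand: gccctctctccagGTGCCaccggagccccc
Slc6a6 (3'UTR), chr6:91756709-91756738, plus strand: tgagtgtttggagTTCTCcttccccgattt
Slc7a5 exon 1, chr8:121907139-121907274, minus strand: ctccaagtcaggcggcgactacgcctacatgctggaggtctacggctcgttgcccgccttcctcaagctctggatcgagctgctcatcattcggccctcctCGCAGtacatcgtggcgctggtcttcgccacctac
Slc7a3 exon 7, chrX:101082199-101082395, minus strand: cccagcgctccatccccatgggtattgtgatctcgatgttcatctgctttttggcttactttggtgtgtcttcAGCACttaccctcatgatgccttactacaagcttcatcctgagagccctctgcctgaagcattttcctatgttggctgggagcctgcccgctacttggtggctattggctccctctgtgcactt
Slc29a1 exon 5, chr17:45589415-45589533, minus strand: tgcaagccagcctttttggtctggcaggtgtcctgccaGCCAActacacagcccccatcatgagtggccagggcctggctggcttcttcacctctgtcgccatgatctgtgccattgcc
Slc25a3 exon 2 and intron 2, chr10:91123497-91123696, minus strand: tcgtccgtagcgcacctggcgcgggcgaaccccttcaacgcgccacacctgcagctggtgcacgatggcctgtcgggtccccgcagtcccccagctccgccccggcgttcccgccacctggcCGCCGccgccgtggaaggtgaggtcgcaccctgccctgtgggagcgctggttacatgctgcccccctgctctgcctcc
Slc4a8 intron 17, chr15:100804017-100804077, plus strand: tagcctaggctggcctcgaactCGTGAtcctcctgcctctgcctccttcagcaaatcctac
Slc39a9 intron 1, chr12:80661686-80661717, plus strand: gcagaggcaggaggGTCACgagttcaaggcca

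A peak was found on 13.2% of the annotated Slc genes (49 of 371, Wilson 95% interval 10.1 to 17.0). Among all other protein-coding genes the share was 9.72% (2079 of 21384), which lies just under that interval. Members came from 27 of the 49 annotated families, and 12 families had at least 2 members. Other groups of membrane proteins chosen by symbol gave shares on both sides of these values. A peak was present on 24.7% of 85 ATPase genes (symbols Atp1 to Atp13), 10.7% of 242 Tmem genes, 8.70% of 23 Mfsd genes, 6.00% of 50 ABC transporter genes and 3.19% of 94 potassium channel genes. None of the 14 Slco genes, the organic anion carriers, had a peak (Wilson 95% upper bound 21.5%). Members were longer than the other Slc genes, with a median of 5020 nt of merged exons and 34331 nt of gene span against 4053.5 and 28054 nt for the 322 Slc genes without a peak. The same order held outside the family, where the medians of exon length were 5738 nt with and 3329 nt without a peak. Whether length accounts for the share of Slc genes with a peak was not tested.

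By substrate, the metal carriers had the highest share of genes with a peak, and the nucleotide sugar carriers the lowest. Of 32 annotated metal carriers 7 had a peak (21.9%, Wilson 95% interval 11.0 to 38.8), namely the zinc transporters Slc30a5, Slc39a1, Slc39a9, Slc39a11 and Slc39a13, the copper transporter Slc31a1 and the magnesium transporter Slc41a1. Zinc carriers as a whole had a peak on 5 of 24 genes, each with 1 peak. The inorganic ion carriers with a peak were 10 of 59 (16.9%, 9.48 to 28.5), among them the sodium/proton exchangers Slc9a8, Slc9a9 and Slc9b1, the chloride cotransporter Slc12a7 and its relative Slc12a9, the phosphate transporters Slc20a1 and Slc20a2, the bicarbonate transporter Slc4a8 and Slc9a3r1, a scaffold protein that carries the symbol of the exchangers it binds and is itself no transporter. Amino acid carriers gave 10 of 65 (15.4%, 8.58 to 26.1), which were Slc1a4, Slc1a5, Slc38a1, Slc38a2, Slc38a10, Slc6a6, Slc6a8, Slc7a1, Slc7a3 and Slc7a5. Sugar carriers gave 6 of 34 (17.6%, 8.35 to 33.5), which were Slc2a1, Slc2a3, Slc5a1, Slc5a11, Slc37a1 and Slc45a4.

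The remaining classes held 16 members. Carriers of vitamins, nucleosides, lipids and others gave 7 of 39 genes (17.9%, 8.98 to 32.7), among them the folate carrier Slc19a1, the vitamin C transporter Slc23a2, the fatty acid transporter Slc27a2, the nucleoside transporters Slc28a1 and Slc29a1 and the choline transporters Slc44a1 and Slc44a2. Mitochondrial carriers of the SLC25 family gave 5 of 47 (10.6%, 4.63 to 22.6), which were the citrate carrier Slc25a1, the phosphate carrier Slc25a3, the ADP/ATP carrier Slc25a5, Slc25a23 and Slc25a33. Carriers of organic ions and carboxylates gave 3 of 68 (4.41%, 1.51 to 12.2), which were Slc10a7, the monocarboxylate transporter Slc16a1 and Slc22a14. Slc35g1 alone represented the 27 nucleotide sugar genes (3.70%, 0.657 to 18.3). The intervals of the 8 classes overlapped one another, and 9.72% lay inside all of them but that of the metal carriers. No class was tested against another.

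**Figure D1:**
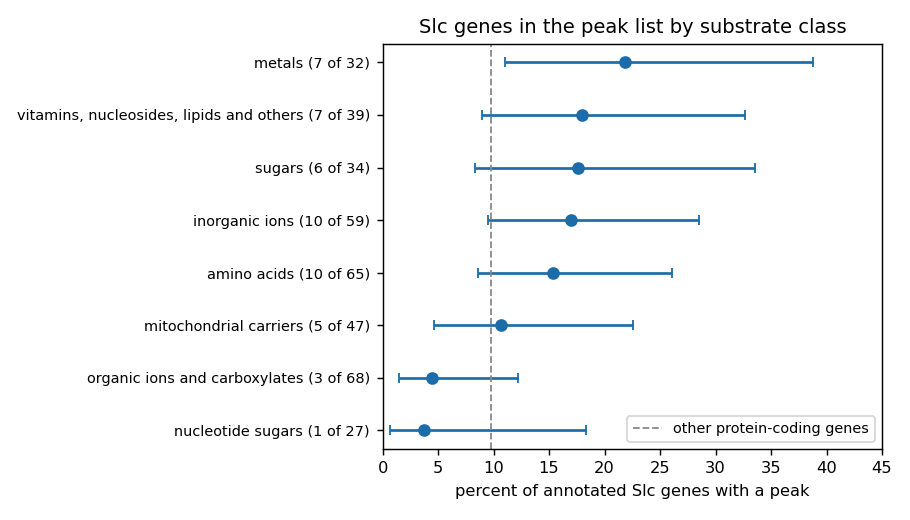
Percent of annotated Slc genes with at least 1 BAZ2A peak in each substrate class; points are the share, bars its Wilson 95% interval, and the dashed line the 9.72% of other protein-coding genes. The shares run from 3.70% for nucleotide sugar carriers to 21.9% for metal carriers, and the intervals overlap.

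Peaks were concentrated on few members. A single peak was present on 34 of the 49 genes, 2 peaks on 7, 3 peaks on 4, 4 peaks on 2, 5 peaks on 1 and 7 peaks on 1. At least 2 peaks were found on 30.6% of members (15 of 49, Wilson 95% interval 19.5 to 44.5), where the share among other protein-coding genes with a peak was 22.3%, inside that interval. At least 3 peaks were found on 16.3% of members (8 of 49, 8.51 to 29.0) and on 7.55% of the others. The 8 members were Slc2a1, Slc6a8, Slc2a3, Slc38a1, Slc6a6, Slc7a3, Slc7a5 and Slc25a3, of which 7 carry glucose, amino acids or amino acid derivatives and Slc25a3 carries phosphate into mitochondria. Together they held 32 of the 80 member peaks (40.0%), and genes with at least 3 peaks held 21.5% of the peaks of other protein-coding genes.

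The scores of member peaks ran from 1.29 to 36.0 with a median of 4.64 and quartiles of 3.44 and 8.16, next to a median of 4.19 and quartiles of 2.95 and 6.62 for the other protein-coding peaks. With only the best peak of each gene the medians were 4.40 and 4.41. The median length was 65.5 nt against 58 nt. The highest 10% of the list by score held 11 of the 80 member peaks (13.8%) and 9.02% of the other protein-coding peaks. Those 11 peaks lay on 6 members, which were Slc2a3, Slc6a8, Slc4a8, Slc39a9, Slc6a6 and Slc2a1.

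**Figure D2:**
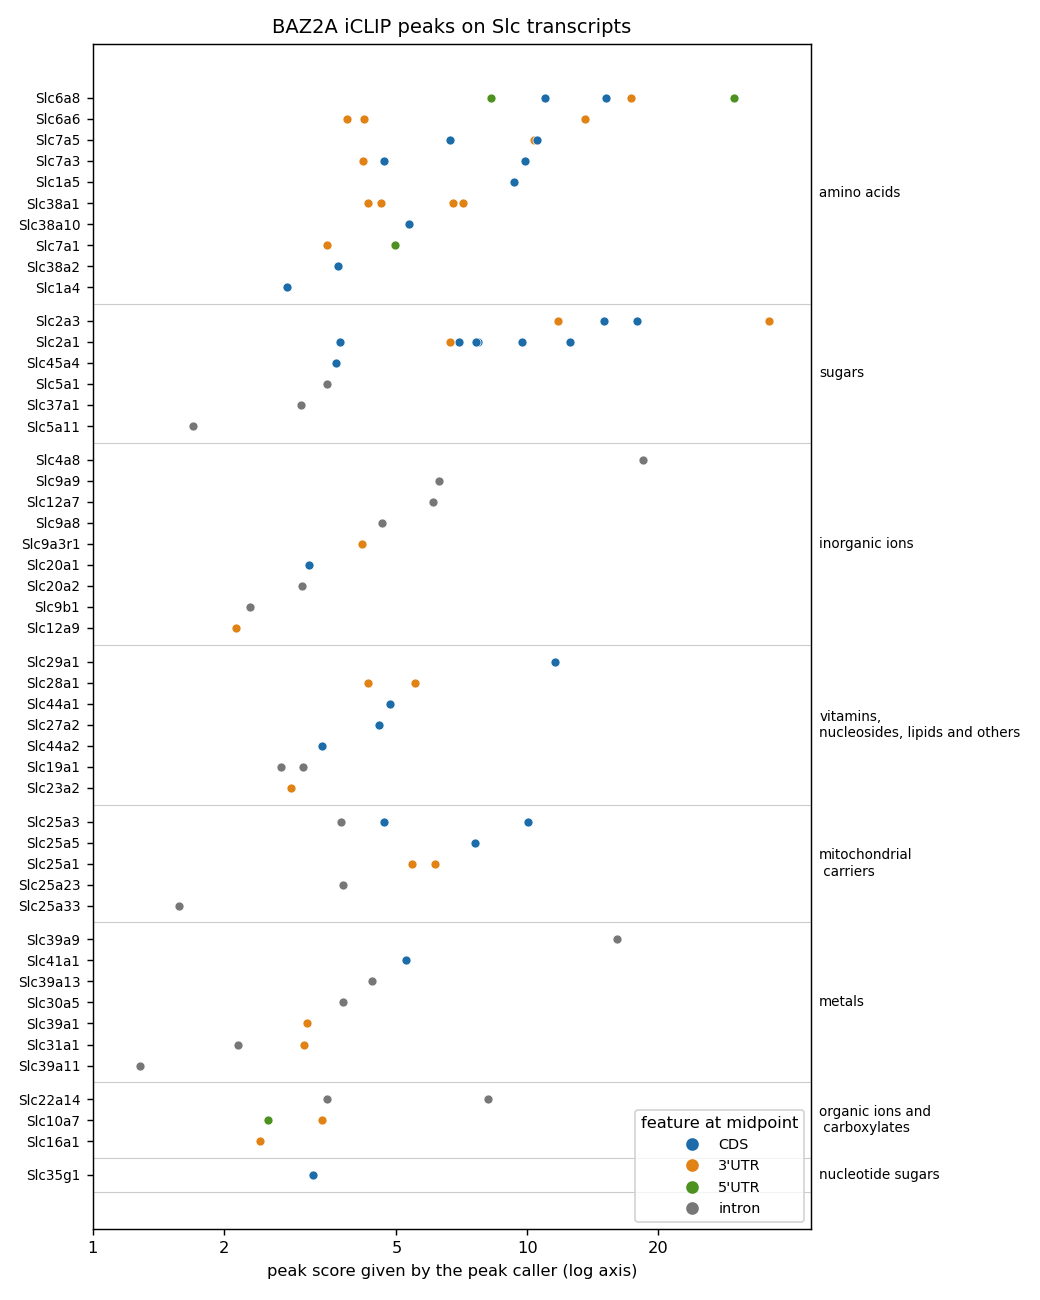
Score of 79 member peaks (log axis) on 48 members, grouped by substrate class and coloured by the transcript feature at the midpoint of the peak. Slc2a3 holds the highest score (36.0), all 24 peaks of amino acid carriers are exonic, and intronic peaks above 10 are those of Slc4a8 and Slc39a9.

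Member peaks lay mostly in exons. A peak was given the feature at its midpoint, and where transcripts of a gene differed, coding sequence (CDS) went before UTRs, UTRs before non-coding exons and exons before introns. By this rule 29 of the 80 peaks lay in CDS (36.3%, Wilson 95% interval 26.6 to 47.2), 25 in a 3'UTR (31.3%, 22.2 to 42.1), 4 in a 5'UTR (5.00%), none in a non-coding exon and 22 in introns (27.5%, 18.9 to 38.1). For the 2838 peaks of other protein-coding genes the shares were 24.3% in CDS, 16.6% in 3'UTRs, 7.40% in 5'UTRs, 2.82% in non-coding exons and 48.8% in introns. Exons of any kind thus held 72.5% of member peaks (58 of 80, 61.9 to 81.1) and 51.2% of the others. The 51.2% lies outside the members' interval, but that interval counts peaks of the same gene as separate. Counted by gene, all peaks were exonic on 59.2% of members (29 of 49, 45.2 to 71.8). Among the other genes with a peak this share was 45.8%, inside that interval. With only the highest peak of each gene the exonic share was 63.3% against 49.3%. Introns made up most of the span of the genes in both groups, at 75.6% for members and 80.2% for the others when each peak counts its own gene once. Within CDS the median score of member peaks was 6.97 against 4.59 for the others, while in 3'UTRs it was 4.31 against 4.61 and in introns 3.59 against 3.76. These medians also count peaks of the same gene as separate. Of the 29 coding peaks of members, 6 lay on Slc2a1, and Slc2a3, Slc6a8, Slc7a3, Slc7a5 and Slc25a3 held 2 each. Scores within CDS were not compared by gene.

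**Figure D3:**
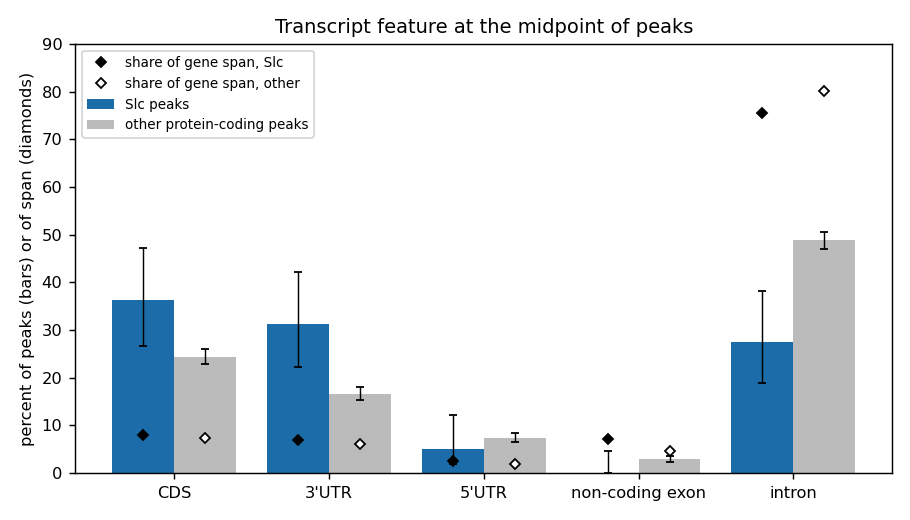
Percent of the 80 Slc peaks and of the 2838 peaks of other protein-coding genes whose midpoint lies in each transcript feature (bars, with Wilson 95% intervals), and the mean share of the gene span that the feature takes (diamonds). CDS holds 36.3% and 3'UTRs 31.3% of Slc peaks, where the span shares are 8.06% and 6.85%, and introns hold 27.5% where the span share is 75.6%.

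The exonic share was highest on the members with several peaks and on the amino acid carriers. These groups overlap, since Slc6a8, Slc38a1, Slc6a6, Slc7a5 and Slc7a3 belong to both. On the 8 members with at least 3 peaks 31 of 32 peaks were exonic (96.9%, Wilson 95% interval 84.3 to 99.4), and on other protein-coding genes with at least 3 peaks 59.3% were (361 of 609). The interval counts the peaks of these 8 genes as separate and is too narrow for a statement about genes. On members with 1 peak the share was 52.9% (18 of 34, 36.7 to 68.5) against 46.9% for the others, and on members with 2 peaks it was 64.3% (9 of 14, 38.8 to 83.7) against 54.2%. Without genes of at least 3 peaks, an alternative chosen after seeing the data, it was 56.3% against 48.9%. By class, amino acid carriers had 24 of 24 peaks in exons, on 10 genes, and sugar carriers 12 of 15. Inorganic ion carriers had only 3 of 10 and metal carriers 3 of 8 in exons. Without the amino acid class the exonic share of the remaining 56 peaks was 60.7%.

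**Figure D4:**
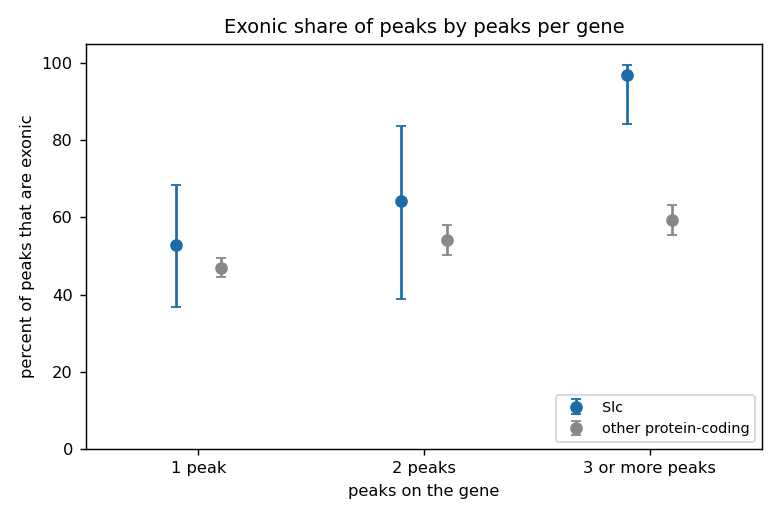
Exonic share of peaks (points, with Wilson 95% intervals) on genes with 1, 2 or at least 3 peaks, for Slc genes and for other protein-coding genes. The shares are 52.9% and 46.9% with 1 peak and 96.9% and 59.3% with at least 3 peaks.

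The glucose transporter Slc2a1, known as GLUT1, which supplies most cells with glucose, had 7 peaks, and only 4 genes of the whole list had more. The gene lies at chr4:119108711-119137983 on the plus strand, and its exons take 12.0% of that span, yet all 7 peaks were exonic. From 5′ to 3′ the scores were 6.97 in exon 3 (codons 65 to 92 of 492), 7.72 in exon 4 (codons 93 to 114), 3.70 and 7.60 in exon 5 (codons 185 to 199 and 204 to 227), 9.72 in exon 6 (codons 268 to 289), 12.6 in exon 9 (codons 359 to 426) and 6.65 in the 3'UTR. The peaks of exon 5 were 12 nt apart and would be 1 peak if neighbours under 50 nt were joined. The highest score, in exon 9, belonged to the longest of the 7 peaks at 207 nt, with both edges within 3 nt of the ends of that exon. The last peaks, in exon 9 and in the 3'UTR, also overlap the antisense gene Gm12868 on the opposite strand.

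The paralog Slc2a3, or GLUT3, a glucose transporter of high affinity, had the highest score of all members. Its 3'UTR peaks scored 36.0 (rank 57 of the 3127 peaks) and 11.8, the latter with its midpoint 54 nt from the end of the reference transcript. Its coding peaks scored 15.0 in exon 5 (codons 174 to 207 of 493) and 17.9 at the start of exon 10 (codons 425 to 448). All 4 scores of Slc2a3 thus lay above 6 of the 7 scores of Slc2a1. The proteins share 66.9% of 487 aligned residues. In that alignment the exon 5 peak of Slc2a3 covered codons homologous to both exon 5 peaks of Slc2a1, with all 15 codons of the upstream peak and 6 of the downstream peak, 21 in all. The other coding peaks of the pair did not meet. Peaks covered 179 of the 492 codons of Slc2a1 and 58 of the 493 codons of Slc2a3. Coverage of this extent would by itself give some shared codons. Their number was not tested, so the 21 shared codons are no evidence of a common site. The pairs Slc38a1 with Slc38a2, Slc1a4 with Slc1a5 and Slc44a1 with Slc44a2, in which each gene had 1 peak that reached coding sequence, shared no homologous codon in a peak. Their peaks covered fewer codons, 8 and 19, 18 and 41, and 26 and 21 in that order.

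Glucose and lactate transport had a peak on 3 of 4 genes of a short list, with 12 peaks, next to 13.2% of all Slc genes and 9.72% of other protein-coding genes. The list holds Slc2a1 and Slc2a3 and was drawn up with their peaks known. Slc16a1, or MCT1, which carries lactate and pyruvate, had 1 peak in its 3'UTR with a score of 2.43, and Slc16a3 had none. Among 7 related genes that are no carriers of this symbol, a peak was found on 4. These were Bsg, the chaperone of the monocarboxylate transporters, with a best score of 5.73, and the glycolytic genes Ldha (3.87), Pkm (3.85) and Hk2 (3.17), while Hk1 and the pyruvate carrier genes Mpc1 and Mpc2 had none. The sodium-coupled glucose transporter Slc5a1 had 1 intronic peak (3.46). The other sugar carriers had 1 peak each, at 3.62 in the CDS of Slc45a4, 3.02 in an intron of Slc37a1 and 1.70 in an intron of Slc5a11.

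**Figure D5:**
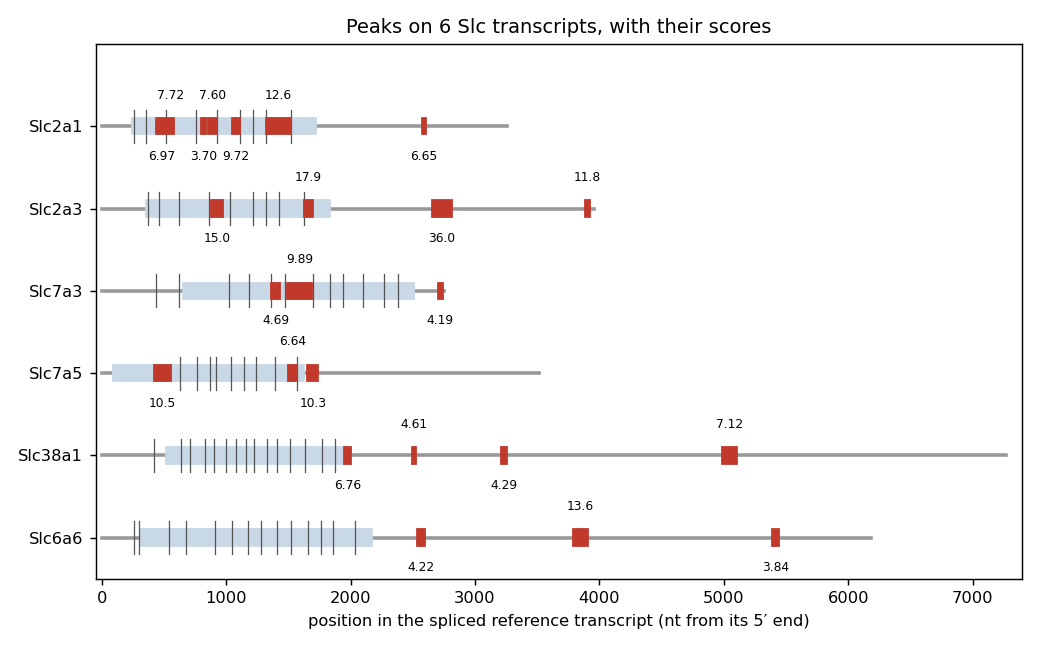
Spliced reference transcripts of 6 members drawn to scale in nt from the 5′ end, with the coding sequence as a pale box, exon ends as thin lines, peaks as red boxes and their scores beside them. Slc2a1 has 6 coding peaks and 1 in the 3'UTR, Slc2a3 has its highest score (36.0) in the 3'UTR, and all 7 peaks of Slc38a1 and Slc6a6 lie at or beyond the stop codon.

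Among the amino acid carriers the creatine transporter Slc6a8 had the most peaks, with 5. They scored 8.26 and 29.9 in the 5'UTR, 15.2 in exon 1 (codons 58 to 86 of 635), 11.0 in exon 2 (codons 88 to 132) and 17.4 in the 3'UTR, and the midpoints of the first 3 lay 370, 529 and 854 nt from the start of the gene. The peak at 29.9 was the second highest member peak, the longest at 241 nt, and reached over the start codon to codon 4. The 5'UTR peaks were 8 nt apart and would be 1 peak if neighbours under 50 nt were joined. Slc6a8 would then have no more peaks than Slc38a1. The midpoints of both 5'UTR peaks lay upstream of the reference transcript and in an exon of only 1 of the 13 annotated transcripts. The peak in exon 2 had both edges within 3 nt of the ends of the exon. The taurine transporter Slc6a6, of the same family, had peaks in the 3'UTR only, at 4.22, 13.6 and 3.84.

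The sodium-coupled glutamine transporter Slc38a1 had 4 peaks with midpoints in its 3'UTR, at 6.76, 4.61, 4.29 and 7.12 in transcript order. The first of them covered the last codons, 478 to 485, and the stop codon. Its paralog Slc38a2 had 1 coding peak at 3.67. Slc38a10, the remaining member of the family, had 1 coding peak at 5.35.

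Slc7a5, or LAT1, which imports large neutral amino acids, had coding peaks of 10.5 in exon 1 (codons 111 to 156 of 512) and 6.64 in exon 9 (codons 469 to 494), and a 3'UTR peak of 10.3. The long gene Gm20388 overlaps all of Slc7a5 on the opposite strand. The cationic amino acid transporter Slc7a3 had coding peaks of 4.69 in exon 6 (codons 236 to 260 of 618) and 9.89 in exon 7 (codons 280 to 345), and a 3'UTR peak of 4.19 whose midpoint was 29 nt from the end of the transcript. Slc7a1, the other cationic carrier, had a 5'UTR peak of 4.95 in exon 2 and a 3'UTR peak of 3.47. The neutral amino acid exchangers had 1 coding peak each, in exon 1 of both genes, at 9.30 for Slc1a5 and 2.79 for Slc1a4.

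Of 11 genes listed for CD98 and amino acid uptake, 7 had a peak, with 15 peaks, next to 13.2% of all Slc genes and 9.72% of other protein-coding genes. This list, like that of glucose and lactate transport, was drawn up with results of these data known, so its count is no independent evidence. Slc3a2, the CD98 heavy chain with which Slc7a5 forms its dimer, had none, nor had the light chains Slc7a6, Slc7a8 and Slc7a11.

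The mitochondrial phosphate carrier Slc25a3 had 3 peaks. The highest, at 10.1, began in the coding part of exon 2 (codons 3 to 49 of 357) and ran on into intron 2, with 139 of its 200 nt in the coding sequence. A second peak, at 4.67, lay in an exon that the reference transcript does not use. That exon runs from 91122207 to 91122331 on chromosome 10 in an alternative coding transcript, and it belongs to a pair of alternative exons of this gene. The third peak, at 3.72, lay in intron 5, inside the snoRNA gene Gm24119 on the same strand, so its reads cannot be told apart from those of that gene. The citrate carrier Slc25a1 had 2 peaks in its 3'UTR (6.13 and 5.43), the ADP/ATP carrier Slc25a5 had 1 coding peak (7.57), and Slc25a23 (3.77) and Slc25a33 (1.58) had 1 intronic peak each.

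Of the other members with at least 2 peaks, the concentrative nucleoside transporter Slc28a1 had neighbouring 3'UTR peaks of 5.50 and 4.31, separated by 40 nt. Slc10a7 had a peak of 2.53 in its 5'UTR and of 3.36 in its 3'UTR. The copper transporter Slc31a1 had an intronic peak of 2.16 and a 3'UTR peak of 3.06, the latter under Cdc26 on the opposite strand.

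Both peaks of Slc22a14 (8.12 and 3.46) and both of Slc19a1 (3.05 and 2.71) lay in introns, outside the reference transcript and within only 1 annotated transcript of each gene. The lower Slc22a14 peak is also listed under Oxsr1, a kinase gene on the same strand, and the higher is 17 nt long and lies under Xylb on the opposite strand. Both Slc19a1 peaks lie within the collagen gene Col18a1 on the opposite strand. In all, 1 of the 80 member peaks was listed under another gene (1.25%, Wilson 95% interval 0.221 to 6.75), against 4.51% of other protein-coding peaks, inside that interval. Another gene on the same strand overlapped 2 member peaks (2.50%, 0.688 to 8.66), against 8.10% of the others, also inside the interval. A gene on the opposite strand overlapped 10 (12.5%, Wilson 95% interval 6.93 to 21.5), against 9.62%, inside that interval. Without such peaks the exonic share was 75.0% of 68 member peaks, against 53.2% of the others.

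Coding peaks often ended where exons end. An edge lay within 3 nt of an annotated splice site in 13 of the 29 coding peaks of members (44.8%, Wilson 95% interval 28.4 to 62.5) and in 35.5% of the 690 coding peaks of other genes, a value inside that interval. On Slc2a1 this held for 5 of the 6 coding peaks. The other 8 lay on Slc2a3, Slc6a8, Slc7a3, Slc7a5, Slc29a1, Slc38a2, Slc38a10 and Slc41a1, with 1 each. A splice site well inside the peak, at least 5 nt from both edges, was present in 1 of the 29 coding peaks, that of Slc25a3 with its stretch of intron, and in 7.68% of the others. None of the 22 intronic member peaks had its midpoint within 50 nt of a splice site (Wilson 95% upper bound 14.9%). Among other intronic peaks the share was 3.75%, under that bound. Of the 25 peaks in 3'UTRs, 3 had their midpoint within 100 nt of the end of the reference transcript (12.0%), those of Slc2a3, Slc7a3 and Slc12a9, next to 16.5% of the others.

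The highest intronic peaks lay in repeats. Slc4a8, which exchanges bicarbonate with chloride, had a peak of 18.5 in intron 17 (rank 168 of the list), and the zinc transporter Slc39a9 a peak of 16.1 in intron 1 (rank 205). Each interval was wholly soft-masked, the mark that the reference gives to repeats. The 32 nt of Slc39a9, read on the other strand, matched a stretch of the Slc4a8 peak at 30 of 32 positions, with a longest shared run of 14 nt. The pair thus holds near-identical sequence in opposite orientation. Of the 22 intronic member peaks 6 were wholly and 9 over 50% soft-masked (40.9%), where 36.0% of other intronic peaks were over 50% masked. Of the 58 exonic member peaks 5 were. Uniqueness of reads in these intervals was not tested.

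The remaining intronic peaks of ion and metal carriers scored lower. Among sodium/proton exchangers they included 6.25 in Slc9a9, 4.62 in Slc9a8 and 2.30 in Slc9b1. Slc12a7 had 6.06 and the phosphate transporter Slc20a2 had 3.03. Zinc carriers had 4.40 in Slc39a13, 3.76 in Slc30a5 and 1.29 in Slc39a11, the last on a peak of 17 nt. Exonic peaks of these classes were those of Slc41a1 (5.26) and Slc20a1 (3.14) in CDS and of Slc9a3r1 (4.16), Slc39a1 (3.12), Slc31a1 (3.06) and Slc12a9 (2.14) in 3'UTRs.

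Members with a single exonic peak among the other classes included the equilibrative nucleoside transporter Slc29a1, whose coding peak of 11.6 in exon 5 (codons 157 to 196 of 458) was the highest of any member with 1 exonic peak. The choline transporters had coding peaks of 4.82 (Slc44a1) and 3.38 (Slc44a2). Slc27a2 had a coding peak of 4.55, opposite to the long non-coding gene Gm26697, and Slc35g1 one of 3.22. Slc23a2 had a 3'UTR peak of 2.85.

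Base composition was described next to that of the other peaks. Mean GC content was 54.1% in members and 54.0% in other protein-coding peaks, with 57.1% and 58.5% in CDS, 47.4% and 49.0% in 3'UTRs and 54.8% and 51.3% in introns. The mode lay on C in 40.0% of member peaks (32 of 80, Wilson 95% interval 29.96 to 51.0) and in 31.8% of the others, while C made up 29.4% of the bases of member peaks. In the coding peaks of members the mode lay on C in 15 of 29 (51.7%, 34.4 to 68.6) against 36.8%.

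Short motifs were searched as letters on both strands of each peak. CCTCCT on the gene strand was present in 7 of the 80 member peaks (8.75%) and in 9.13% of the others, the Slc4a8 peak among them. GAAGAA on either strand was present in 9 member peaks (11.3%, Wilson 95% interval 6.03 to 20.0) and in 4.23% of the others. AGATCG was in none of the 80 (Wilson 95% upper bound 4.58%) and in 3.74% of the others, on either strand. These letters also occur in the primers that the study used for reverse transcription. ATTG 3 nt before AGAT, as in the primer of the background samples, was likewise in no member peak and in 3.28% of the others. Whether primer sequence gave such peaks was not tested. GGAGGA on either strand was in 13.8% of member peaks and 11.8% of the others, and on the gene strand in 2.50% and 3.81%. Member peaks are longer, which alone gives a motif more room, and its part was not tested. Peaks of 18 nt or shorter made up 2.50% of member peaks (2 of 80, on Slc22a14 and Slc39a11) and 9.27% of the others.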

How the data were processed

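iCLIP of FLAG- and HA-tagged BAZ2A from E14 mouse ESCs gave 3 crosslinked and 3 background libraries. Crosslinked and background libraries were combined in pairs ahead of sequencing. The authors trimmed reads (Flexbar), aligned them to mm10 (STAR 2.6), collapsed duplicates (UMI-tools 0.5.1) and ran omniCLIP with the background libraries as control. The deposited list pools the libraries, and its score is the peak caller's value as deposited by the authors, on a scale not given in the sources used here. The list holds no depth for single libraries, of which the study's methods give only a range, not used here.

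Peaks were set against GENCODE M21, restricted to 19 autosomes and X. The reference transcript was the coding transcript with the best APPRIS tag and then the longest coding sequence. Splice sites are those of all transcripts of a gene. GC content and soft-masking came from the RefSeq GRCm38 genome. Proteins translated from the reference transcripts were aligned with BLOSUM62 in Biopython. Shares carry Wilson 95% intervals, and no test was run, since the members were chosen by having a peak. Members, substrate classes and gene lists were chosen with earlier results of these data known. Values for each peak are given for members with at least 2 peaks and for those holding the 10 highest member peaks, and in short for the others. The name and values of 1 member, which stays in the counts, and some sequences are not reported here. The alternatives kept only the top 50% or 10% by score, left out short or overlapping peaks, or changed the feature rule. Feature assignment was tested on a made-up gene with known features, and the Wilson interval on simulated draws. Python 3.11.15, pandas 2.3.3, scipy 1.17.1 and pysam 0.24.0 were used.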

Additional observations from a re-analysis of the deposited data

How the results depend on the processing

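Of 42 alternatives, 27 left the value within its interval or, for a count, within 1.5 times. Most of those that did not took a part of the list by score. A cut by score lowers the counts and raises the median score by its own rule, so the values of the others are given beside. With the 50% of peaks of the highest score there were 25 members (6.74% of annotated Slc genes, against 5.05% of other protein-coding genes). The exonic share was then 84.8% against 59.2%, the median score 7.59 against 6.77 and the median length 86 against 80 nt. The mean GC content was 57.9% against 55.4%. At least 2 peaks were left on 9 of the 25 members and on 18.4% of the others. With the 10% of the highest score there were 6 members (1.62% against 1.09%), and the exonic share was 81.8% against 53.1% over 11 peaks. There the median score of members was the lower one, at 16.1 against 18.8, and the median length was 100 against 86 nt. The exonic share of member peaks stayed above that of the others in each alternative run. It was 63.3% against 49.3% with 1 peak per gene, and, in alternatives chosen after seeing the data, 56.3% against 48.9% without genes of 3 or more peaks and 60.7% without the amino acid class. Without Slc2a1, also chosen after seeing the data, 8 of 23 coding member peaks had an edge at a splice site. No paired analysis was possible because the list pools all libraries, which also kept single libraries from being left out. Depth limits which genes could reach the list, and the list does not give it for single libraries.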
